A study of Glycine max with 60 samples.

Results

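Myo-inositol-phosphate synthase (MIPS) is encoded in soybean by several genes, and 3 of them were followed here through seed development: MIPS1 (Glyma.11G238800, chromosome 11) and 2 paralogs whose best Arabidopsis match is MIPS3, Glyma.08G138200 on chromosome 8 and Glyma.05G180600 on chromosome 5. The 3 genes were chosen by their identifiers, from the 56044 genes of the deposited count table, and all 3 passed the filter on low counts that left 40517 genes for testing. Another annotated MIPS gene, Glyma.18G018600 on chromosome 18, shares the best Arabidopsis match MIPS2 with MIPS1 and is given where shares of the family are stated. Chromosomes are those in the gene identifiers of the Williams 82 assembly (Wm82.a2.v1), and the exon positions of these genes were not used here.

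The enzyme MIPS converts glucose 6-phosphate to inositol 3-phosphate, the first committed step toward myo-inositol. Myo-inositol is in turn the substrate for phosphatidylinositol, for galactinol and the raffinose family of sugars, for cell wall sugars through inositol oxygenase, and for phytic acid, which stores phosphate in the seed. Loss of MIPS1 function lowers both phytic acid and raffinose sugars of soybean seed, and the question put to these libraries was how transcripts respond when the enzyme encoded by 1 gene of the family is defective.

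Whole developing seeds of 4 lines grown in growth chambers were sequenced at 5 stages of seed length, 2 to 4 mm (S1), 4 to 6 mm (S2), 6 to 8 mm (S3), 8 to 10 mm (S4) and 10 to 12 mm (S5), with 3 libraries per line and stage and 60 in all. The mutant 3mlpa has the genotype mips1/mrp-l/mrp-n, that is, mutations in MIPS1 and in a pair of ABC transporter genes needed for phytic acid storage. 3MWT, from the same cross, carries the functional alleles of all of them. The genotype mips1/MRP-L/MRP-N marks the mutant 1mlpa, and 1MWT (MIPS1/MRP-L/MRP-N) is its isogenic sibling line without the mutation. Each genotype is represented by 1 line, and the pairs come from different crosses that share the mips1 donor parent. The authors describe 3mlpa and 3MWT as recombinant inbred lines and 1mlpa and 1MWT as near-isogenic lines. For this reason they expected more genes to differ in the 3mlpa pair. The 3mlpa and 3MWT libraries were re-analysed from an earlier study, so that the pairs cannot be told apart from the sequencing effort. No source says whether the 3 libraries of a group came from separate plants, and p-values measure only the spread between these libraries, which may be technical.

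Total counts per library ranged from 17359192 to 42800413, with a median of 25314824. At S5, 23.0% to 32.9% of a library's counts fell on its 10 most abundant genes, against 2.1% to 5.6% at S1. All 9 seed storage marker genes, such as glycinin and beta-conglycinin, were detected in every group, and their summed level was 42.5 to 797 CPM (counts scaled to the library size after TMM normalization) at S1 and 228766 to 436010 CPM at S5. All 8 seed coat markers were detected in every group as well, at a sum of 128.1 to 1212 CPM over the 60 libraries. The 2 endosperm markers summed to at most 8.2 CPM, and 1 of them was at 0 in 3 groups at S4. The column names of 3 libraries, 1mlpa replicate 1 at S2, 1MWT replicate 3 at S2 and 1MWT replicate 2 at S3, carry an added mark that no source explains, and values without these 3 libraries are given where they change a call. In whole seeds, fewer cells of a type and less RNA per cell cannot be told apart.

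The 3 genes differed widely in level. Per length of gene, as reads scaled by gene length and by the library's total count (RPKM), MIPS1 ranged from 268.2 to 1788 RPKM over the 60 libraries with a median of 1064 RPKM. Glyma.05G180600 was at 5.85 to 331.7 RPKM and Glyma.08G138200 at 0 to 2.45 RPKM. MIPS1 was the highest of the 3 genes in 59 of 60 libraries, the exception being 3MWT replicate 3 at S1, with 302.8 RPKM of MIPS1 and 331.7 RPKM of Glyma.05G180600. Glyma.08G138200 was the lowest in all 60. Ranked by mean RPKM among all genes of a group, MIPS1 stood at places 56 to 105 at S1 and 12 to 24 at S3, while Glyma.05G180600 stood at 197 to 515 at S1 and at 4262 to 9654 at S5.

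**Figure D1:**
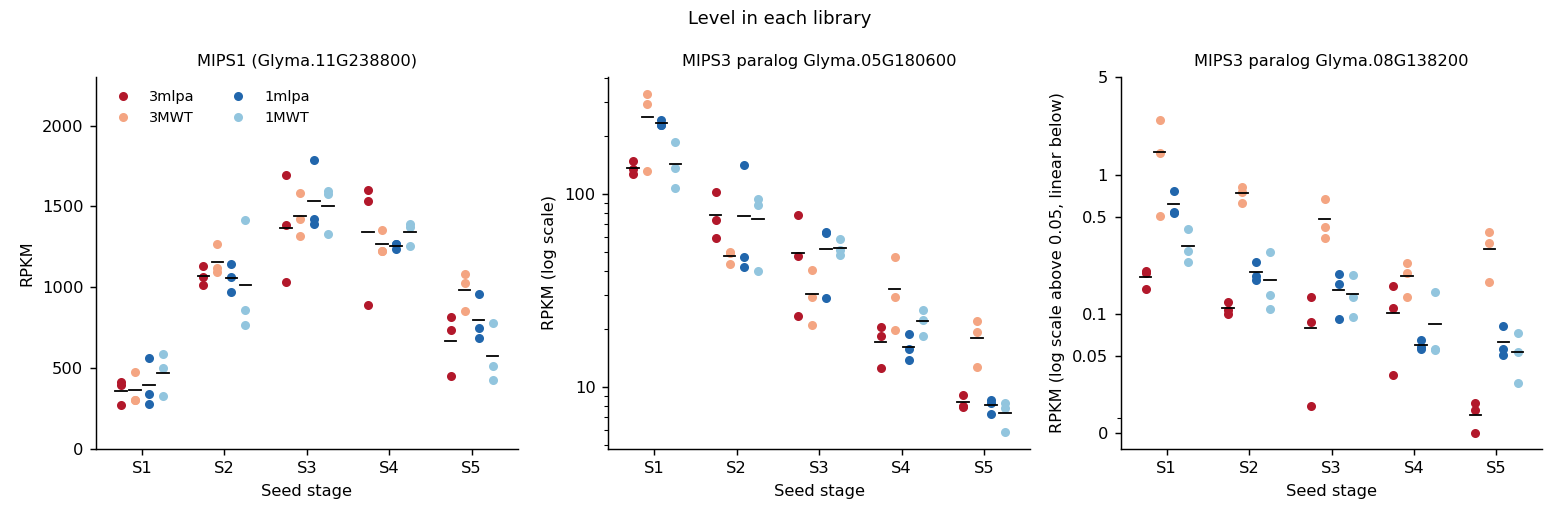
Deposited RPKM of MIPS1 (linear axis), Glyma.05G180600 (log axis) and Glyma.08G138200 (log axis above 0.05 RPKM, linear below) by seed stage S1 to S5, with 1 point per library of 3mlpa, 3MWT, 1mlpa and 1MWT and a black tick at each group mean. MIPS1 averaged 1369 to 1534 RPKM at S3, Glyma.05G180600 was at most at 21.9 RPKM in any library at S5, and Glyma.08G138200 at most at 2.45 RPKM in any library.

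MIPS1 was low in the smallest seeds and high in mid-sized seeds of all 4 lines. In 3mlpa seeds its 3 libraries were at 410.9, 268.2 and 396.4 RPKM at S1, 1013, 1062 and 1133 RPKM at S2, 1694, 1030 and 1383 RPKM at S3, 1600, 1533 and 887.1 RPKM at S4 and 738.1, 816.3 and 452.1 RPKM at S5. In 3MWT seeds they were at 304.9, 475.2 and 302.8 RPKM at S1, 1267, 1118 and 1092 RPKM at S2, 1581, 1314 and 1420 RPKM at S3, 1223, 1223 and 1351 RPKM at S4 and 1079, 1025 and 853.1 RPKM at S5. The S1 and S2 libraries did not overlap in either line. In 1mlpa seeds MIPS1 averaged 393.2 ± 151.6 RPKM at S1, 1059 ± 86.1 RPKM at S2, 1534 ± 220.7 RPKM at S3, 1258 ± 19.5 RPKM at S4 and 796.2 ± 142.7 RPKM at S5 (SD, n = 3). In 1MWT seeds it averaged 471 ± 133.2, 1014 ± 350.6, 1501 ± 149.3, 1341 ± 71.5 and 571.8 ± 183.5 RPKM at S1 to S5 (SD, n = 3).

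The order of the stages by mean RPKM was the same in the 4 lines, with S3 highest, then S4, S2 and S5, and S1 lowest. On TMM-normalised CPM, which corrects for the large share of storage protein reads in older seeds, S4 was highest, then S3, S5 and S2, and S1 was again lowest in each line. The place of S5 above or below S2 therefore depended on the scale, and the step between S3 and S4 passed the test in no line on either scale. In edgeR's quasi-likelihood test a gene was called where its log2 fold change exceeded 1 in size and its Benjamini-Hochberg adjusted p was below 0.01.

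From S1 to S2 MIPS1 was called higher in 4 of 4 lines. Its log2 fold change of S2 over S1 was 1.64 in 3mlpa (standard error 0.26, adjusted p = 1.40e-05), 1.74 in 3MWT, 1.45 in 1mlpa and 1.14 in 1MWT (adjusted p = 0.00348), which is 3.12, 3.33, 2.74 and 2.2 times the S1 level. Over the same step, 1 of the 3 MIPS genes was called in 3mlpa and in 1MWT, 2 in 3MWT and all 3 in 1mlpa, while 4.58% of all tested genes were called in 3mlpa and 9.23% in 3MWT, beside 8.56% in 1mlpa and 1.74% in 1MWT. In 1MWT the call was lost without replicate 2 (1.09, adjusted p = 0.0319), without replicate 3 (1.03, adjusted p = 0.111) and without the 3 marked libraries (0.79, adjusted p = 0.189). Replicate 3 of 1MWT at S2 was at 1416 RPKM, against 767.7 and 859.4 RPKM in the other libraries. With only the compared libraries fitted, the calls in 1mlpa (1.46, adjusted p = 0.0106) and in 1MWT (1.15, adjusted p = 0.308) were lost as well. The later steps of MIPS1 (Glyma.11G238800) were smaller. From S2 to S3 its log2 fold change was 0.61 to 0.70 (adjusted p = 0.0538 to 0.341), from S3 to S4 0.09 to 0.24 (-0.29 to -0.03 with total counts as library sizes), and from S4 to S5 -0.70 to -0.17 (adjusted p = 0.0371 to 0.891).

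None of the 3 genes was called by edgeR in the 12 later steps, where 14 of the 36 tests had an unadjusted p under 0.05 and DESeq2 called 1. Among all tested genes, 3.93%, 3.06%, 0.131% and 0.00987% were called from S2 to S3 in 3mlpa, 3MWT, 1mlpa and 1MWT. From S3 to S4 the shares were 1.4%, 1.19%, 4.69% and 3.12%, and from S4 to S5 2.34%, 0.343%, 3.57% and 7.17%.

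Between the ends of the series, S5 over S1, MIPS1 was higher by a log2 fold change of 1.81 in 3mlpa and 2.33 in 3MWT, and by 1.86 in 1mlpa and 1.23 in 1MWT (standard errors 0.26 to 0.27, adjusted p at most 5.73e-05). This rise depended on the scaling in a pair of lines, since with total counts as library sizes the difference was 0.90 in 3mlpa (adjusted p = 0.00178 for Glyma.11G238800) and 0.28 in 1MWT (adjusted p = 0.314), under the limit for a call. That scaling shifted every gene by -0.98 to -0.87 between S1 and S5. In 1MWT the value also rested on replicate 2, without which it was 0.85. All 3 MIPS genes were called for S5 over S1 in 3mlpa, 3MWT and 1mlpa and 2 of them in 1MWT, where 32.2%, 29.3%, 31.9% and 32.6% of all tested genes were called.

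MIPS1, the gene mutated in both mutants, was not called in any of the 10 tests of a mutant against its non-mutant, of which 1 had an unadjusted p under 0.05 and none was called by DESeq2. At S1 it averaged 358.5 ± 78.6 RPKM in 3mlpa and 361 ± 98.9 RPKM in 3MWT (SD, n = 3). At S5 it averaged 668.8 ± 191.7 RPKM in 3mlpa and 985.5 ± 117.8 RPKM in 3MWT (SD, n = 3). The S5 libraries of this pair did not overlap, with a log2 fold change of -0.61 (95% interval -1.12 to -0.10, adjusted p = 0.0755), and those at S1 to S4 did. Averaged over the 5 stages, the log2 fold change was -0.25 in 3mlpa over 3MWT (95% interval -0.48 to -0.02, adjusted p = 0.0581) and 0.08 in 1mlpa over 1MWT (95% interval -0.15 to 0.30, adjusted p = 0.778).

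The difference between the 2 pairs of lines in the averaged MIPS1 effect was -0.33 (adjusted p = 0.0913), and its dependence on the stage did not pass the test in the 3mlpa pair (adjusted p = 0.742) or in the 1mlpa pair (adjusted p = 0.915). At S5 MIPS1 averaged 796.2 ± 142.7 RPKM in 1mlpa and 571.8 ± 183.5 RPKM in 1MWT (SD, n = 3), and the log2 fold change was 0.35 (95% interval -0.16 to 0.86). The count table does not separate alleles, so that a transcript level does not show which MIPS1 allele a library carries.

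Of the 3 genes, 1 was called in 3mlpa over 3MWT at S1, S2, S3 and S5 and none at S4, and in each case it was Glyma.08G138200. The share of all tested genes called in this pair was 6.21%, 4.71%, 4.52%, 2.36% and 4.27% from S1 to S5, and 6.75% averaged over stages. In 1mlpa over 1MWT none of the 3 genes was called by edgeR or by DESeq2 at any stage, 1 of the 15 tests had an unadjusted p under 0.05, and 0.289%, 0%, 0.00247%, 0.074% and 0% of all tested genes were called at S1 to S5, and 0.079% averaged over stages. At S2 and S5, where no gene was called in that pair by edgeR, 5070 and 1290 genes had an unadjusted p under 0.05, and DESeq2 called 15 and 7.

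**Figure D2:**
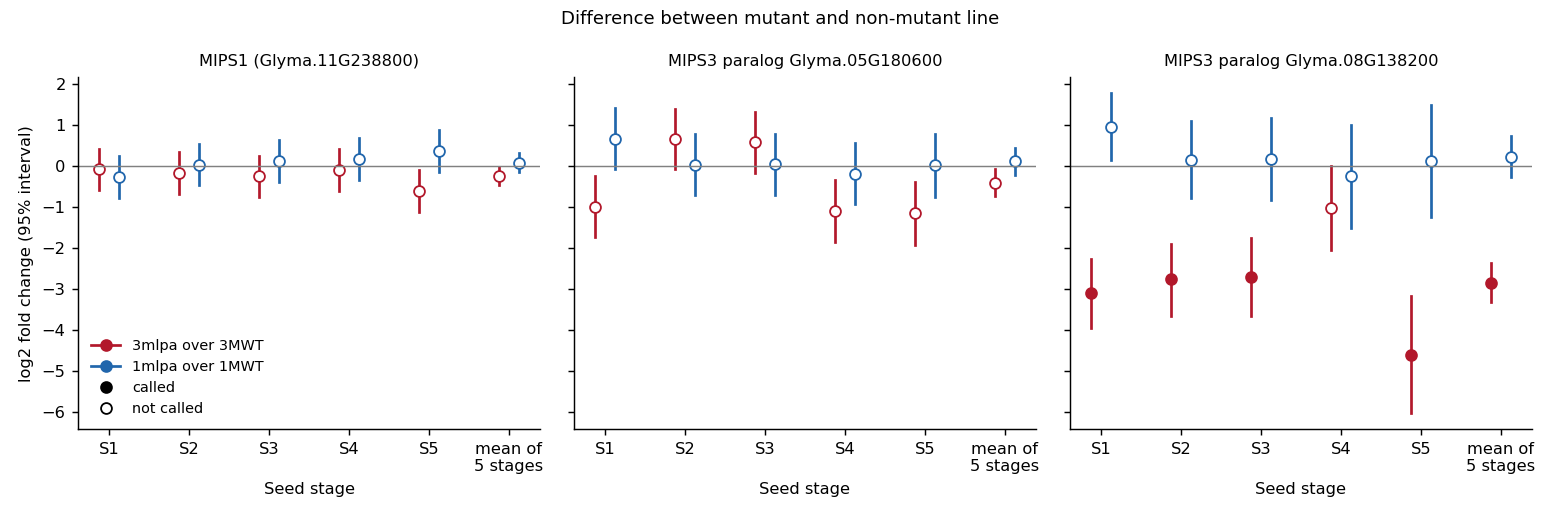
Log2 fold change of the mutant over its non-mutant (vertical axis, with 95% intervals) for the 3 genes at S1 to S5 and averaged over the stages, 3mlpa over 3MWT beside 1mlpa over 1MWT; filled points were called. Glyma.08G138200 lay between -4.60 and -1.03 in 3mlpa over 3MWT and between -0.26 and 0.95 in 1mlpa over 1MWT.

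The paralog Glyma.08G138200 was at a very low level in every line and lower in 3mlpa than in 3MWT seeds. Its read counts in the 3mlpa libraries were 9, 12 and 12 at S1, 9, 7 and 8 at S2, 8, 6 and 1 at S3, then 8, 9 and 2 at S4 and lastly 1, 0 and 1 at S5. In 3MWT its counts were 92, 23 and 117 at S1, 32, 41 and 72 at S2, 35, 23 and 24 at S3, then 7, 12 and 11 at S4 and lastly 22, 19 and 10 at S5. The libraries of this pair did not overlap at S1, S2, S3 and S5, and at S4 they did. In 1mlpa the counts were 28, 33 and 48 at S1 and 2 to 14 from S2 on, and in 1MWT they were 13, 23 and 10 at S1 and 2 to 17 from S2 on. At S2, S3 and S5 every 3MWT library lay above every library of the other 3 lines in RPKM. At S1 and S5 every 3mlpa library lay below every library of the other 3 lines. At S1 3mlpa was at most at 0.203 RPKM and the lowest 1MWT library at 0.236 RPKM. These differences across the pairs were not tested.

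In 3mlpa over 3MWT the log2 fold change of Glyma.08G138200 was -3.11 at S1 (standard error 0.41, adjusted p = 5.16e-07), -2.77 at S2 (standard error 0.43, adjusted p = 1.03e-05), -2.71 at S3 (standard error 0.48, adjusted p = 5.59e-05) and -1.03 at S4 (standard error 0.51, adjusted p = 0.186). At S5 the 3mlpa libraries held 2 counts in all, against 51 in 3MWT, a depth-corrected ratio of 0.0366 with a 95% counting interval of 0.00432 to 0.139 that covers counting error only. Averaged over the stages the log2 fold change was -2.85 (95% interval -3.31 to -2.38, adjusted p = 7.98e-14), which is 7.19 times lower in 3mlpa. Leaving out each replicate number of a line, at all stages at once, gave -3.02 to -2.73. The calls at S1 and S3 were lost when only the compared libraries were fitted, with adjusted p of 0.0212 and 0.0175 at log2 fold changes of -3.09 and -2.69. At S2 the call held in such a fit. At S4 and S5 the gene was filtered out for low counts, so that the S5 call could not be checked this way.

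In 1mlpa over 1MWT Glyma.08G138200 differed by 0.95 at S1 (adjusted p = 0.336), with 109 counts in all in 1mlpa and 46 in 1MWT, and by 0.22 averaged over stages (95% interval -0.27 to 0.72, adjusted p = 0.674). The averaged line effects of the 2 pairs differed by -3.07 (standard error 0.35, adjusted p = 2.07e-09), and of the 3 genes this was the one called, where 7.58% of all tested genes were. The size of its line difference did not depend on the stage past the threshold (adjusted p = 0.0573). Both mutants carry mips1. The pairs differ in the mrp-l and mrp-n mutations, in their parents, in the kind of sibling line (recombinant inbred or near-isogenic) and in the sequencing effort. These cannot be told apart here.

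Glyma.05G180600 and Glyma.08G138200 share their best Arabidopsis match, and reads that fit both could be counted for the wrong copy. For each 1000 counts of Glyma.05G180600, Glyma.08G138200 had 1.24 to 1.78 counts in 3mlpa and 4.24 to 8.22 counts in 3MWT at S1. At S2 it had 1.17 to 2.29 counts in 3mlpa and 13.8 to 19.2 in 3MWT. At S4 the ranges overlapped, with 3.34 to 8.6 counts in 3mlpa and 4.96 to 11 in 3MWT, and at S5 it had 0 to 2.39 counts in 3mlpa and 14.9 to 19.8 in 3MWT. The ratio ranged from 1.36 to 13.9 over the 1mlpa and 1MWT libraries. The ratio was thus not constant over lines and stages, and how many of the few reads of Glyma.08G138200 came from its copy was not tested, since the handling of reads that match several genes is not given in the sources used here.

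Glyma.05G180600 had its highest level in the smallest seeds, where MIPS1 had its lowest, and from S4 to S5 both genes had negative log2 fold changes in all 4 lines. In 3mlpa its libraries were at 135, 126.9 and 148.6 RPKM at S1, 59.6, 73.3 and 102.3 RPKM at S2, 23.5, 78.3 and 47.7 RPKM at S3, 18.4, 20.5 and 12.5 RPKM at S4 and 9.11, 7.94 and 7.91 RPKM at S5. In 3MWT they were at 293.4, 132.9 and 331.7 RPKM at S1, 50.1, 43.7 and 49.6 RPKM at S2, 40.6, 21.1 and 29.3 RPKM at S3, 29.5, 19.8 and 47.2 RPKM at S4 and 21.9, 19.3 and 12.7 RPKM at S5. Replicate 2 of 3MWT at S1 was low for this gene and for Glyma.08G138200 and high for MIPS1. In 1mlpa the gene averaged 233.6 ± 7.29 RPKM at S1, 77.1 ± 56.3 RPKM at S2 and 8.04 ± 0.679 RPKM at S5, and in 1MWT 143.6 ± 39.5, 74.3 ± 29.8 and 7.31 ± 1.28 RPKM at the same stages (SD, n = 3).

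The mean RPKM of Glyma.05G180600 was ordered from S1 down to S5 in 3mlpa, 1mlpa and 1MWT, and in 3MWT its S4 mean lay above that of S3. The fall from S1 to S2 was called in 3MWT, at -2.39 ± 0.38 on the log2 scale (standard error; adjusted p = 5.42e-06), and in 1mlpa, at -1.58 ± 0.37 (adjusted p = 0.00122). It was -0.74 in 3mlpa (adjusted p = 0.166) and -0.94 in 1MWT (adjusted p = 0.0917), and differences between the lines in this step were not tested on their own. Both calls were lost when only the compared libraries were fitted, at -2.40 (adjusted p = 0.0109) in 3MWT and -1.58 (adjusted p = 0.0224) in 1mlpa. In 1mlpa the call held in 1 of the 3 fits that left out a replicate, over which the value ranged from -2.31 to -1.28, and the marked replicate 1 at S2 stood apart at 142.1 RPKM, against 47.3 and 41.9 RPKM in the other libraries. For S5 over S1 the gene was lower by a log2 fold change of -3.13 in 3mlpa and -2.97 in 3MWT, and of -3.99 in 1mlpa and -3.34 in 1MWT (adjusted p at most 1.43e-08), 7.83 to 15.9 times below its S1 level.

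Glyma.08G138200 was also lower at S5 than at S1, by a log2 fold change of -2.97 in 3mlpa, -1.47 in 3MWT and -2.36 in 1mlpa, which were called, and of -1.53 in 1MWT (adjusted p = 0.0135). Without 3MWT replicate 3 the value in 3MWT was -0.57, without 3mlpa replicate 2 the value in 3mlpa was -2.29, and both calls were lost. Its S2 over S1 step was called in 1mlpa only (-1.58, adjusted p = 0.00355), with 37 counts in all at S2 and 109 at S1, and this call held in none of the 3 fits that left out a replicate, which gave -1.81 to -1.32.

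**Figure D3:**
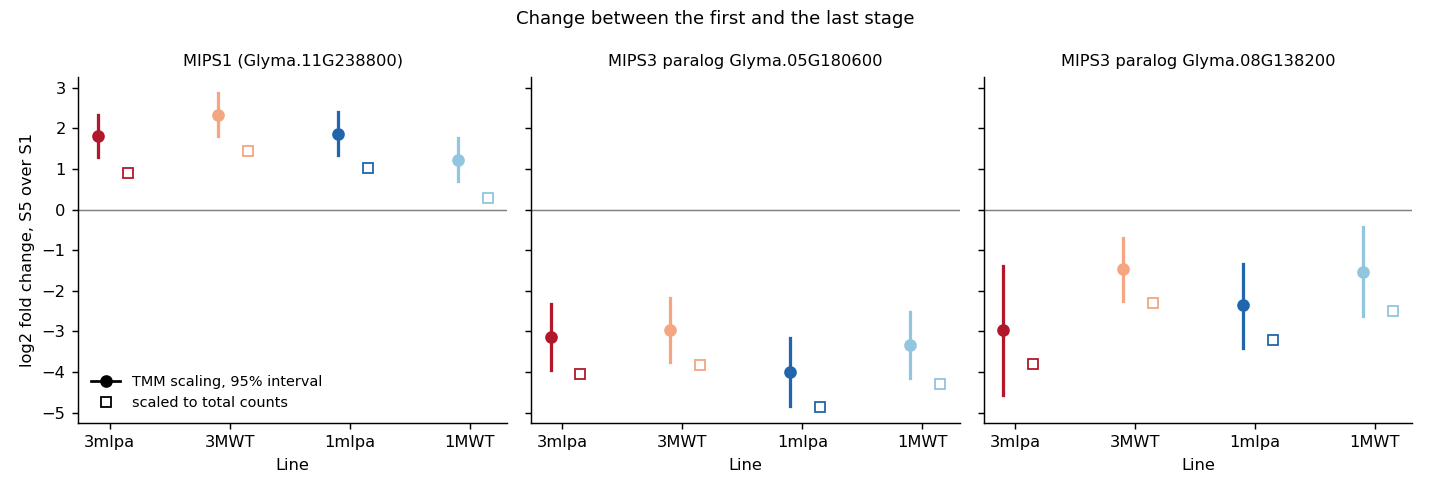
Log2 fold change of S5 over S1 (vertical axis) of the 3 genes in 3mlpa, 3MWT, 1mlpa and 1MWT, as circles with 95% intervals after TMM scaling and as open squares with total counts as library sizes. MIPS1 lay above 0 in each line on both scales, down to 0.28 in 1MWT with total counts, and Glyma.05G180600 lay between -3.99 and -2.97 after TMM scaling.

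In no comparison of a mutant with its non-mutant was Glyma.05G180600 called. At S1 it averaged 136.8 ± 10.9 RPKM in 3mlpa and 252.7 ± 105.5 RPKM in 3MWT (SD, n = 3), which is -1.0 on the log2 scale (standard error 0.37, adjusted p = 0.0363). At S2 and S3 the value was positive, 0.65 (adjusted p = 0.198) and 0.57 (adjusted p = 0.259), and at S4 and S5 it was negative, -1.09 (adjusted p = 0.0446) and -1.16 (adjusted p = 0.0228). On TMM-normalised CPM the libraries did not overlap at S2, where 3mlpa was higher, and at S4 and S5, where it was lower, with 22.4 to 27.3 CPM in 3mlpa and 37.7 to 66 CPM in 3MWT at S5. Without 3MWT replicate 2 the S1 difference was -1.33 and called (adjusted p = 0.00755), and without the 3 marked libraries the S5 difference was -1.14 and called (adjusted p = 0.00974).

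The dependence of this line difference on the stage lay just outside the threshold in the 3mlpa pair, with an adjusted p of 0.0103, where 3.89% of all tested genes were called and none of the 3 MIPS genes was. DESeq2 gave it an adjusted p of 0.000877, the fit without the 3 marked libraries 0.00227, and the fit without 3mlpa replicate 1 0.00702. In the 1mlpa pair, where 0.00247% of all tested genes were called for stage dependence, the adjusted p was 0.929. Averaged over stages, Glyma.05G180600 differed by -0.41 in 3mlpa over 3MWT (adjusted p = 0.0342) and by 0.11 in 1mlpa over 1MWT (95% interval -0.22 to 0.44, adjusted p = 0.78).

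Summed levels of seed maturity markers lay lower in both mutants than in their non-mutants in the smallest seeds. The summed level of the 9 seed storage markers was 42.5 to 171.7 CPM in 3mlpa and 220.1 to 797 CPM in 3MWT at S1. At S2 it was 1622 to 3975 CPM in 3mlpa and 4610 to 21878 CPM in 3MWT. At S5 it was 265378 to 318186 CPM in 3mlpa and 279527 to 295506 CPM in 3MWT. These markers include a Kunitz trypsin inhibitor, Glyma.08G341500, at 34.9 to 390.3 CPM over the S1 libraries. No other marker exceeded 142.4 CPM at S1, so that 1 gene can make up much of the S1 sum. The pair with the single mutation was separated too, with 75.6 to 147.1 CPM in 1mlpa and 331.7 to 516.1 CPM in 1MWT at S1, where no MIPS gene was called. At S4 the order of that pair was the opposite, 191404 to 214169 CPM in 1mlpa and 93449 to 125434 CPM in 1MWT. The 8 seed coat markers summed to 774.1 to 897.7 CPM in 3mlpa and 564.4 to 946.3 CPM in 3MWT at S1. Within groups the sum varied too. In 3MWT at S1 it was 797 CPM in replicate 2, the library with the least Glyma.05G180600 and the most MIPS1, against 239.4 and 220.1 CPM in the other libraries. In 1MWT at S2 it was 11106 CPM in replicate 3, where MIPS1 was highest and Glyma.05G180600 lowest, against 561.3 and 1754 CPM, and in 1mlpa at S2 it was lowest, 3248 CPM, in replicate 1, where Glyma.05G180600 was highest. In 3mlpa at S3 the order was the reverse. The storage marker sum was highest there in replicate 2 (74209 CPM), with the most Glyma.05G180600 (78.3 RPKM) and the least MIPS1 (1030 RPKM). It was lowest in replicate 1 (17166 CPM), with the least Glyma.05G180600 (23.5 RPKM) and the most MIPS1 (1694 RPKM). The part of seed maturity in the line and stage differences of the MIPS genes was not tested.

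Shares in the summed RPKM of the family are given as a description, with no test. Over the 12 libraries of a stage, MIPS1 made up a median of 52.9% of the summed RPKM of the 4 MIPS genes at S1 (39% to 68.1%), then 81%, 87.9% and 91.1% from S2 to S4, and 91.6% at S5 (87.2% to 94.8%). Glyma.05G180600 made up 22.5% at S1 (12.3% to 42.7%), then 4.3%, 2.68% and 1.37% from S2 to S4, and 1.13% at S5. The share of Glyma.18G018600 was 20.2% at S1 and 7.27% at S5. Glyma.08G138200 held at most 0.315% of the sum in any library. At S1 in 3mlpa MIPS1 took 57.2 ± 4.21% and Glyma.05G180600 22.2 ± 2.48%, and in 3MWT MIPS1 took 49.3 ± 16.3% and Glyma.05G180600 33.6 ± 12.8% (SD, n = 3).

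**Figure D4:**
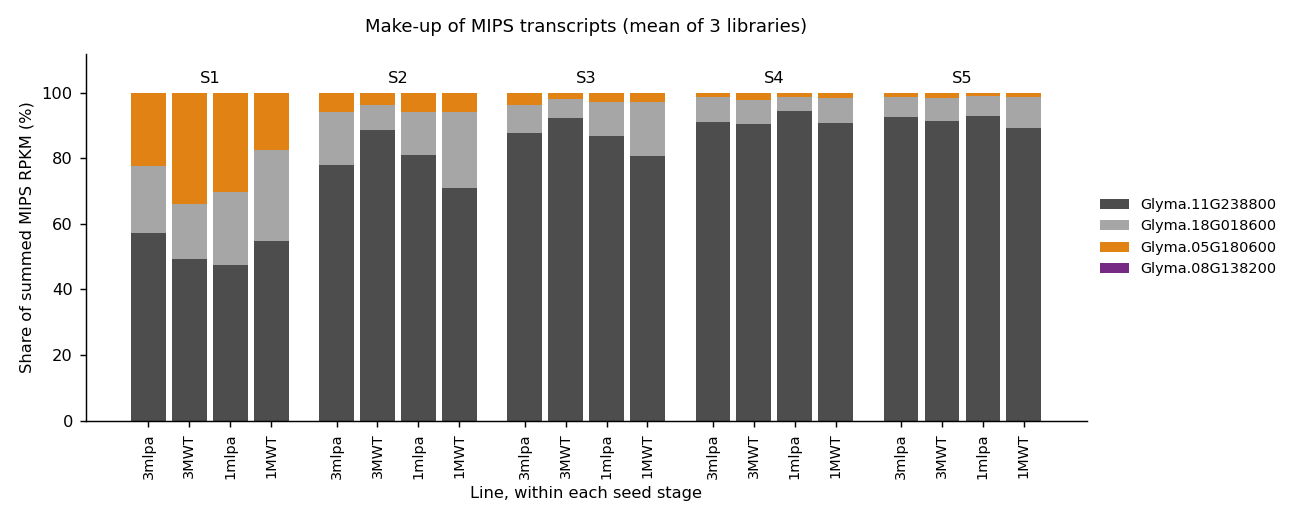
Stacked bars of the share of each of the 4 annotated MIPS genes in their summed RPKM (vertical axis, percent, mean of 3 libraries) for 3mlpa, 3MWT, 1mlpa and 1MWT within each seed stage. The share of MIPS1 was larger at S5, with a median of 91.6% over 12 libraries, than at S1, and that of Glyma.05G180600 was down to 1.13%.

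Profiles of other genes were set beside those of the 3 members as a description, by Pearson r over the 20 group means of log2 CPM, where the points share lines, stages and depth. The 5 genes most like MIPS1 were Glyma.08G083700 (r = 0.985, match to a pyruvate/oxaloacetate carboxyltransferase), Glyma.02G221900 (r = 0.984, lectin receptor kinase), Glyma.11G255800 (r = 0.983, X8 carbohydrate-binding domain), Glyma.13G289100 (r = 0.982, UDP-glycosyltransferase) and Glyma.14G053700 (r = 0.981, peroxidase). The profile of Glyma.05G180600 was most like those of Glyma.07G102700 (r = 0.978, match to phosphoethanolamine N-methyltransferase), Glyma.06G177700 (r = 0.978), Glyma.18G196300 (r = 0.976), Glyma.06G155500 (r = 0.975, protein kinase) and Glyma.19G213300 (r = 0.974). For Glyma.08G138200 they were Glyma.08G203600 (r = 0.935), Glyma.06G069900 (r = 0.927, RanBP2-type zinc finger), Glyma.01G036700 (r = 0.924), Glyma.10G000500 (r = 0.914) and Glyma.07G018500 (r = 0.913, bHLH factor). Glyma.08G138200 itself averaged 0.663 CPM, below the average log2 CPM of 1 asked of the other genes. Its group means ran from 0.0377 CPM (3mlpa at S5) to 2.75 CPM (3MWT at S1). Within the family, r was -0.746 for MIPS1 with Glyma.05G180600, 0.555 for Glyma.05G180600 with Glyma.08G138200 and -0.384 for MIPS1 with Glyma.08G138200.

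Sibling lines can differ over chromosome segments, and the 20 tested genes on each side of each member were counted by the order of their identifiers. Averaged over stages in 3mlpa over 3MWT, 4 of the 40 neighbours of MIPS1 (10%), 3 of 40 of Glyma.08G138200 (7.5%) and 4 of 40 of Glyma.05G180600 (10%) were called, beside 6.75% of all tested genes. The 3 neighbours of Glyma.08G138200 called averaged over stages were all higher in 3mlpa, the direction opposite to its own. They were Glyma.08G140400, matched to a cytochrome P450, with a log2 fold change of 1.66 (adjusted p = 6.34e-07), Glyma.08G136700 (1.05, adjusted p = 0.00193) and Glyma.08G138400 (1.05, adjusted p = 0.00334). At single stages both directions occurred. Of its 40 neighbours, 1 was called higher and 1 lower at S1 and again at S3. At S2 and at S4 1 was called higher, and at S5 2 were called lower. These were 2.5% to 5% of the neighbours at a stage, beside 2.36% to 6.21% of all tested genes. In 1mlpa over 1MWT none of the 40 neighbours of any member was called averaged over stages, and at single stages 1 of 40 (2.5%) was, a neighbour of MIPS1 that was lower at S1.

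The genes that act on myo-inositol after MIPS were drawn from annotation words in the deposited tables. Those tables list nearly only genes that the authors called on these samples, so that the counts are not independent evidence of a direction. A called share above that of all tested genes was also built in by this choice, and the shares are a description only. Of 42 tested pathway genes other than MIPS, 8 were called higher and 1 lower in 3mlpa over 3MWT at S1 (21.4%, beside 6.21% of all tested genes), and 5 higher and 0 lower averaged over stages (11.9%, beside 6.75%), with an averaged median log2 fold change of 0.09 beside 0.00 for all tested genes. In 1mlpa over 1MWT 0 were called at each single stage, and 0 higher and 2 lower averaged over stages (4.76%, median -0.13). For S5 over S1, 13 were called higher and 21 lower in 3mlpa (81%, beside 32.2% of all tested genes), and 13 higher and 15 lower in 3MWT (66.7%, beside 29.3%).

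Inositol monophosphatase, which releases myo-inositol from the product of MIPS, had 3 tested genes, and none was called in a line comparison at a stage or averaged over stages. The same held for the 3 tested inositol phosphate kinase genes, which add the phosphates of phytic acid, and for both MRP genes. Of all tested genes, 2.36% to 6.75% were called in the 3mlpa pair and at most 0.289% in the 1mlpa pair, so that 0 calls among so few genes is near the background. Averaged in 3mlpa over 3MWT, some differences under the fold change limit had an adjusted p below 0.01. They were those of Glyma.04G009800 (-0.41, adjusted p = 9.50e-06), Glyma.10G255000 (-0.36, adjusted p = 0.00011) and Glyma.06G089800 (0.76, adjusted p = 8.53e-05). Glyma.07G266200 (0.02), Glyma.09G011100 (-0.37) and Glyma.14G072200 (-0.08) did not pass it. In that comparison 23881 of all tested genes had an unadjusted p under 0.05. The averaged line effect of the kinase gene Glyma.06G089800 differed between the pairs by 1.36 (adjusted p = 3.72e-06), with 0.76 in 3mlpa over 3MWT and -0.60 in 1mlpa over 1MWT. Over development, the MRP transporter genes were both called higher at S5 than at S1 in all 4 lines, by 1.66 to 2.01 (Glyma.03G167800) and 1.30 to 1.51 (Glyma.19G169000). The monophosphatase gene Glyma.09G011100 was called higher in all 4 lines too, by 1.12 to 2.00, and the kinase gene Glyma.14G072200 by 2.75 to 3.61. Of the other members of these lists, the kinase gene Glyma.10G255000 was called lower in all 4 lines (-1.48 to -1.19) and Glyma.06G089800 in 3mlpa and 1MWT, and the monophosphatase gene Glyma.04G009800 was called lower in 3 lines and Glyma.07G266200 in 2 lines. Of all tested genes, 29.3% to 32.6% were called for S5 over S1.

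Among the branches that consume myo-inositol, all 3 listed inositol oxygenase genes were called higher in 3mlpa than in 3MWT at S1, beside 6.21% of all tested genes. Their enzyme opens the ring toward glucuronic acid. The level of Glyma.07G013900 was 7.28 ± 1.91 CPM in 3mlpa against 0.63 ± 0.633 CPM in 3MWT (SD, n = 3), and it differed by 3.55 ± 0.62 on the log2 scale (standard error; adjusted p = 5.52e-05). It was lower at S4 (-3.32) and S5 (-2.0), and at -0.24 averaged over stages it was not called. Glyma.05G224500 differed by 2.10 at S1 (adjusted p = 0.00263) and by 1.71 averaged over stages. Glyma.08G199300 differed by 2.45 at S1 (adjusted p = 0.00081) and, not called, by 0.71 averaged over stages. In 1mlpa over 1MWT, averaged over stages, Glyma.07G013900 was lower by -1.52 (adjusted p = 0.00147) and Glyma.08G199300 by -1.5 (adjusted p = 0.00131). In that comparison 0.079% of all tested genes were called, and Glyma.05G224500 was at -0.92 and not called. Galactinol synthase starts raffinose synthesis from myo-inositol. Of its 4 genes, 2 were called higher in 3mlpa than in 3MWT averaged over stages, beside 6.75% of all tested genes. Glyma.19G219100 differed by 2.76 (standard error 0.60, adjusted p = 0.000166). Its values ran from 4.88 at S1 to -0.60 at S4, with standard errors of 0.92 to 1.39 at single stages. Glyma.19G227800 differed by 1.13 (standard error 0.30, adjusted p = 0.00151) and was called at no single stage. Glyma.03G229800 was called lower at S1 (-2.78, adjusted p = 0.00289) and was at -0.97 averaged over stages (adjusted p = 0.0045), and Glyma.03G222000 was at 0.22 and not called. The inositol transporter Glyma.09G011400, matched to INT4, was higher in 3mlpa by 1.08 averaged over stages (adjusted p = 2.40e-09). The other 5 of the 6 tested inositol transporter genes were not called averaged over stages, where 6.75% of all tested genes were. In 1mlpa over 1MWT none of the 6 was called at any stage or averaged over stages.

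**Figure D5:**
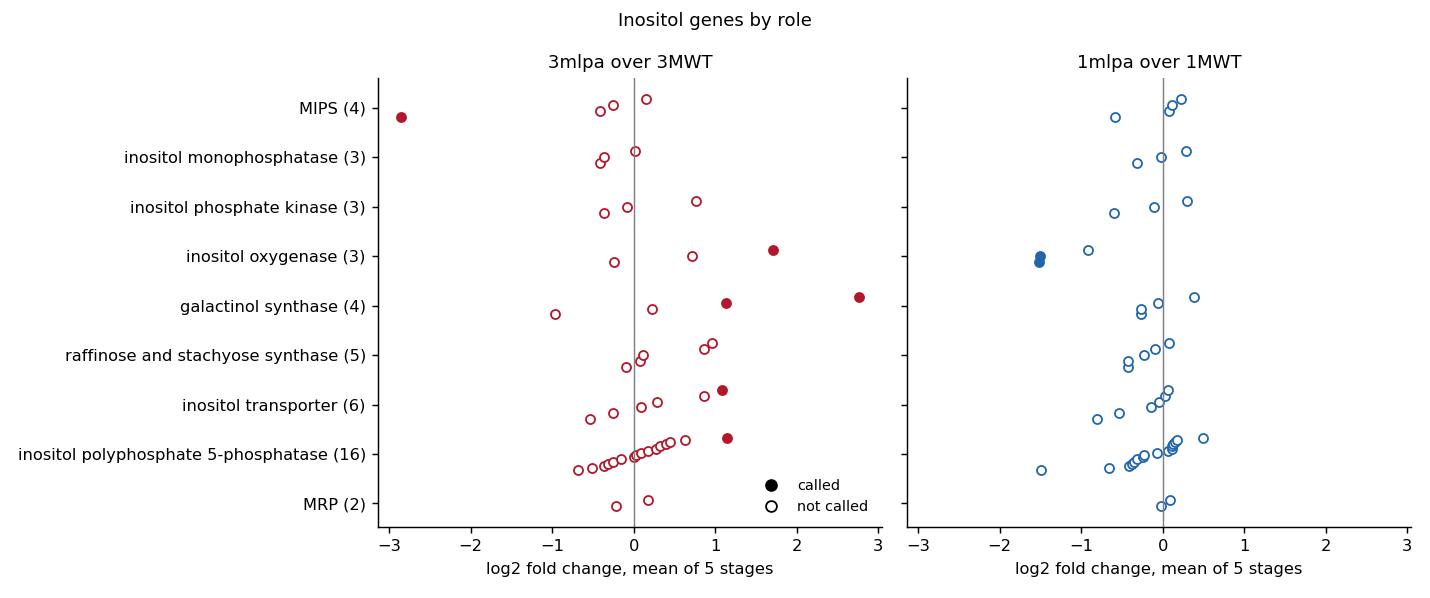
Log2 fold change averaged over the 5 stages (horizontal axis) of MIPS genes and of the tested genes of each inositol pathway list, 3mlpa over 3MWT beside 1mlpa over 1MWT; filled points were called. Glyma.08G138200 lay at -2.85 in 3mlpa over 3MWT, and 5 of the 42 other genes were called there, all higher (11.9%, beside 6.75% of all tested genes).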

How the data were processed

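To obtain the deposited counts, the authors mapped their single-end reads (100 bases) to Wm82.a2.v1 using STAR 2.4.2, and featureCounts 1.4.6 assigned them to genes. The authors also deposited RPKM, which imply lengths of 1945 bases for MIPS1, 2281 for Glyma.08G138200, 2049 for Glyma.05G180600 and 2193 for Glyma.18G018600. The strand setting and the treatment of reads matching several genes are not given in the sources used here. Tables of the authors' log2 fold changes (DESeq2 1.8.2, R 3.2.4) were used only for their annotation text. All columns of sample values were assigned, and 0 were left over.

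Counts of the 60 libraries were fitted with edgeR 4.0.16 (R 4.3.3, limma 3.58.1) in 1 quasi-likelihood model with 20 group means after TMM normalization and filterByExpr, with Benjamini-Hochberg adjustment over all 40517 tested genes of a comparison. RPKM was used for levels between genes and for shares, without a test. Likeness used log2(CPM + 1) and genes with an average log2 CPM above 1. Members and lists were chosen with earlier results of these data known. Named are the members, the fourth MIPS gene, the 5 genes of highest r, called neighbours of a called member, and up to 4 genes per list with the smallest adjusted p, and the MRP, monophosphatase and kinase genes named for their stage change were chosen after their values were seen. On counts simulated for 3mlpa over 3MWT at S1 with 40175 genes, the test recovered 96 of 100 genes changed by a log2 fold change of 2 and 96 of 100 changed by 3. The changed genes were drawn from those averaging above 1 CPM. Glyma.08G138200 averaged 0.663 CPM, so that recovery at its level was not tested. No 2 libraries of a group were alike within sampling noise, with a mean chi-square per gene of at least 4.01 where 1 is expected. Alternatives were DESeq2 1.42.0, other scalings, no filter, the compared libraries alone, a replicate block and leaving out each replicate. Gene identifiers could not be joined to the reference table, so that sequences and positions are not reported. Python 3.11.15, pandas 2.3.3, numpy 2.4.6, scipy 1.17.1 and matplotlib 3.10.9 were used.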

Additional observations from a re-analysis of the deposited data

Results flagged for a closer look

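The averaged line effect of Glyma.08G138200 differed between the pairs of lines by -3.07 on the log2 scale (edgeR adjusted p = 2.07e-09), and this test of the difference itself brought it here. It was -2.85 in 3mlpa over 3MWT and 0.22 in 1mlpa over 1MWT. In 3mlpa over 3MWT the value was negative at all 5 stages. At S4 it was not called (-1.03, adjusted p = 0.186), and the libraries overlapped. For the difference between the pairs, the 12 fits that left out a replicate gave -3.25 to -2.94. Counts were 0 to 12 in the 3mlpa libraries, 7 to 117 in the 3MWT libraries, 2 to 48 in the 1mlpa libraries and 2 to 23 in the 1MWT libraries. The mrp-l and mrp-n mutations, the parents, the kind of sibling line (recombinant inbred or near-isogenic) and the sequencing effort change together between the pairs. They cannot be told apart. Groups held 3 libraries each, so single libraries were not checked as outliers.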

How the results depend on the processing

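Over 1178 alternative values of the 3 genes, 1096 kept their direction and side of the threshold, 21 lost the call, 19 gained it, and 42 changed sign, of which 0 were called on either side. The values that changed sign were at most 0.41 in size. Total counts as library sizes gave S5 over S4 values of -1.0 (3mlpa) and -1.23 (1MWT) and S5 over S1 values of 0.90 (3mlpa) and 0.28 (1MWT) for MIPS1 (Glyma.11G238800). For Glyma.08G138200 they gave -2.99 for S5 over S4 in 3mlpa and -2.5 for S5 over S1 in 1MWT. For Glyma.05G180600 they gave S4 over S3 values of -1.54 (3mlpa), -1.69 (1mlpa) and -1.26 (1MWT) and -1.59 for S5 over S4 in 1MWT. The same scaling turned the sign of the S4 over S3 step of MIPS1 in all 4 lines, to -0.03 (3mlpa), -0.18 (3MWT), -0.29 (1mlpa) and -0.16 (1MWT), and of its S4 difference in 3mlpa over 3MWT (0.08) and 1mlpa over 1MWT (-0.09), and that of Glyma.05G180600 in 1mlpa over 1MWT at S3 (-0.02). This scaling shifts all genes by -0.55 to -0.03 for a step. The compared libraries were also fitted alone. Such a fit leaves 4 residual degrees of freedom for a comparison of single groups, and more for an averaged comparison. In these fits 7 calls were lost and 1 was gained. S2 over S1 of MIPS1 was 1.46 in 1mlpa and 1.15 in 1MWT, Glyma.08G138200 was at -3.09 and -2.69 in 3mlpa over 3MWT at S1 and S3 and at -1.49 for S5 over S1 in 3MWT, and Glyma.05G180600 was at -2.40 (3MWT) and -1.58 (1mlpa) for S2 over S1, all with the call lost, and at -1.06 for S5 over S4 in 1MWT, with the call gained. In 15 of these fits Glyma.08G138200 was filtered out, among them those of 3mlpa over 3MWT at S4 and S5. DESeq2 gave this gene no adjusted p in 1mlpa over 1MWT at S4. Without the 3 marked libraries, a choice made after seeing the data, S2 over S1 was 0.79 for MIPS1 in 1MWT and -1.44 for Glyma.08G138200 in 1mlpa, and Glyma.05G180600 was at -1.14 in 3mlpa over 3MWT at S5, at -1.31 and -1.18 for S4 over S3 in 3mlpa and 1mlpa, and at an adjusted p of 0.00227 for stage dependence in the 3mlpa pair. Its sign turned in 1mlpa over 1MWT at S2 (-0.98) and averaged over stages (-0.10), and for S3 over S2 in 1mlpa (0.34). DESeq2 gave Glyma.05G180600 -1.32 for S4 over S3 in 3mlpa and 0.000877 for that stage dependence, and RLE size factors 0.00952. The causes were not tested.

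Each replicate number of a line was left out in turn, at all stages at once. MIPS1 in 1MWT ranged from 1.03 to 1.37 for S2 over S1 and from 0.85 to 1.64 for S5 over S1. Glyma.08G138200 ranged from -1.42 to -0.45 (3MWT) and from -1.81 to -1.32 (1mlpa) for S2 over S1, and from -3.52 to -2.29 (3mlpa) and from -1.97 to -0.57 (3MWT) for S5 over S1. Glyma.05G180600 ranged from -1.33 to -0.71 in 3mlpa over 3MWT at S1, from -2.31 to -1.28 for S2 over S1 in 1mlpa, and from 0.00702 to 0.0843 in the adjusted p of stage dependence in the 3mlpa pair. Ranges that crossed 0 were those of MIPS1 in 3mlpa over 3MWT at S1 (-0.20 to 0.10) and S4 (-0.19 to 0.05) and in 1mlpa over 1MWT at S2 (-0.14 to 0.41) and averaged (-0.04 to 0.18). For Glyma.08G138200 they were those in 1mlpa over 1MWT at S2 (-0.12 to 0.68), S3 (-0.03 to 0.44), S4 (-0.50 to 0.33) and S5 (-0.18 to 0.53), for S3 over S2 in 3mlpa (-0.56 to 0.22), 1mlpa (-0.47 to 0.09) and 1MWT (-0.80 to 0.46), for S4 over S3 in 1MWT (-1.02 to 0.10) and for S5 over S4 in 1mlpa (-0.09 to 0.42) and 1MWT (-0.75 to 0.70). For Glyma.05G180600 they were those in 1mlpa over 1MWT at S2 (-0.70 to 0.32), S3 (-0.12 to 0.28) and S5 (-0.07 to 0.16) and averaged (-0.05 to 0.21), and for S3 over S2 in 1mlpa (-0.85 to 0.21). As TMM CPM per kilobase, the median level of MIPS1 (Glyma.11G238800) was 865.6 at S2, 1559 at S4 and 1091 at S5. Of the 5 genes most like each member, 3 (MIPS1), 3 (Glyma.08G138200) and 1 (Glyma.05G180600) were also among the 5 of highest r over the 60 libraries.

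Replicate numbers showed no consistent pairing of the libraries, since only 3 of 26 pairs of groups had every correlation of same-numbered deviations over 0.1. A weak or partial pairing could fail this check and is not excluded by it. With the replicate block Glyma.08G138200 differed by -2.84 in 3mlpa over 3MWT averaged over stages (adjusted p = 2.50e-13), and the block changed no call of the 3 genes. It turned the sign of 1 value, Glyma.05G180600 in 1mlpa over 1MWT at S2 (-0.00, against 0.03).

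The number of all genes called moved by over 1.5 times in 17 of 32 comparisons with the compared libraries alone, 16 of 35 with total counts, 11 of 35 with DESeq2, 8 of 35 without the marked libraries, 2 of 35 with the replicate block, 1 of 35 without the filter, 0 of 35 with RLE and 76 of 156 counts without a replicate. With the compared libraries alone, 3mlpa over 3MWT had 465 called genes at S1 (2518 in the joint fit), 497 at S3 (1831), 386 at S4 (958) and 492 at S5 (1731). In 1mlpa over 1MWT at S1, 260 were called by DESeq2, 206 without the marked libraries and 19 in the compared libraries alone (117 in the joint fit). At S4 in that pair the numbers were 147 (DESeq2), 259 (total counts), 507 (compared libraries alone) and 55 (replicate block), against 30, and at S2 15 (DESeq2) and 583 (without the marked libraries), against 0.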

Other observations

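The fourth MIPS gene, Glyma.18G018600, was at 16.7 to 436.6 RPKM over the 60 libraries. It differed by a log2 fold change of -0.59 in 1mlpa over 1MWT averaged over stages (edgeR adjusted p = 0.031), and its averaged line effects differed by 0.74 between the pairs (adjusted p = 0.0086), under the limit of 1 for a call. At S5 over S1 it was called in 1MWT (-1.10, adjusted p = 0.0097).

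The summed RPKM of the 4 MIPS genes at S1 was 621.8 ± 96.7 in 3mlpa and 741.2 ± 40 in 3MWT, and at S5 724.8 ± 218.7 in 3mlpa and 1079 ± 139.3 in 3MWT (SD, n = 3), values with no test.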
